A study of Homo sapiens with 6 samples.

Results

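The genes described here are 9 amino acid transporter genes: SLC38A1, SLC38A2, SLC1A4, SLC1A5, SLC7A1, SLC7A5, SLC7A8, SLC7A11 and SLC3A2. They were followed through the 23 probe sets, of 22215 tested, that the platform annotation assigns to exactly 1 of them, and all 23 were kept, with no filter on low signal. Messenger RNA was measured on Affymetrix arrays in E1 and in HCT116, with 3 arrays per line. According to the labels E1 is a metastatic colon cancer line obtained in vivo, and HCT116, an established colon carcinoma line, metastasizes poorly. The cell line label of the E1 samples also reads HCT116, and the labels give no treatment, no clone and no host for E1. The set was chosen by the array signal of SLC38A1, which was lower in E1 than in HCT116, so the differences between the lines are given for all 9 genes as a description, without p-values.

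Cells import amino acids through carriers that divide the work. Sodium-coupled carriers such as SLC38A1 and SLC38A2 load the cell with glutamine and other small neutral amino acids, and SLC1A4 and SLC1A5 exchange neutral amino acids. SLC7A5, SLC7A8 and SLC7A11 are light chains that reach the plasma membrane bound to the heavy chain SLC3A2, also called CD98hc, and trade one amino acid for another: SLC7A5 and SLC7A8 carry large neutral amino acids, and SLC7A11 brings in cystine against glutamate. SLC7A1 is a carrier of arginine and lysine. Many of these genes are known targets of ATF4, a transcription factor that is made when amino acids run short and that binds DNA elements with the core TGATGNAA.

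Promoter windows of 250 bases before to 50 after a RefSeq transcript start (GRCh38.p14) were found for 8 of the 9 genes, 17 windows in all, and were searched on both strands for that core, TGATGNAA, as the only motif. At least 1 window held it for 5 of the 8 genes, against 4.46% of all 27305 genes with a window. A gene with more windows has more chances of a match. Of the 17 windows 5 held it, against 3.62% of all 35116 windows of the same length. A match is a description of the letters and not of binding. Many of these genes were known ATF4 targets beforehand, so the shares are no test of a link to ATF4. The 4 windows below are shown because 1 of them belongs to SLC38A1 and the others hold a match and belong to genes with a probe set more than 1 log2 unit higher on 1 HCT116 array than on the other HCT116 arrays, as described after the single genes. SLC7A5 had such a probe set too, but its only window held no match and is not shown. SLC7A11 also had such probe sets, but it is the gene for which no window was found. Capitals mark the match, which in SLC1A4 and SLC3A2 lies on the opposite strand and therefore reads reversed and complemented.
SLC38A1 promoter, chr12:46266467-46266766, minus strand: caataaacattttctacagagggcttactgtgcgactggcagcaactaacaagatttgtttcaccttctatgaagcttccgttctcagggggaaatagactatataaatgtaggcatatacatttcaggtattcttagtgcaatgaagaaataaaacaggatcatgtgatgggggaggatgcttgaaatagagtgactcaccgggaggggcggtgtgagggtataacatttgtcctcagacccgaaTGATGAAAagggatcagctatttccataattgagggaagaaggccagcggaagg
SLC7A1 promoter, chr13:29595639-29595938, minus strand: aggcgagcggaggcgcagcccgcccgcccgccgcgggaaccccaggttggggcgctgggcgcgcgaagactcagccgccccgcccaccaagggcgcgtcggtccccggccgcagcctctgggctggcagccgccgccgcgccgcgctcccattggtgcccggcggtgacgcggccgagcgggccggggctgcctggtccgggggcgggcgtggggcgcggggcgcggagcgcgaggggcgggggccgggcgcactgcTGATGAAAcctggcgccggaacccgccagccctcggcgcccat
SLC1A4 promoter, chr2:64989149-64989448, plus strand: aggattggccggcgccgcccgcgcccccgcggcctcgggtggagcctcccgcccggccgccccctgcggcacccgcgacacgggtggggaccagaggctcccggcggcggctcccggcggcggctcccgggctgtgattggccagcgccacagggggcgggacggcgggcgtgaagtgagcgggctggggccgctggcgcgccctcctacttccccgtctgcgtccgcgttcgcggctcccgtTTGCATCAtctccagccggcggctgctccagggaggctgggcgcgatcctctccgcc
SLC3A2 promoter, chr11:62881449-62881748, plus strand: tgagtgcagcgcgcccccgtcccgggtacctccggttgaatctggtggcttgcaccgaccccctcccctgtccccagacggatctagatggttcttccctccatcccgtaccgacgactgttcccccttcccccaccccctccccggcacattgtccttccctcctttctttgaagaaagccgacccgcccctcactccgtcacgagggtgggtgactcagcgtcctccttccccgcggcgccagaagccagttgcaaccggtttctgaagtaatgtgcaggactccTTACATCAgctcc
Counted from the transcript start, with the first transcribed base as 1 and the base before it as -1, the match lay at -4 to 4 in the SLC38A1 window, at 8 to 15 in SLC7A1, at -7 to 1 in SLC1A4 and at 38 to 45 in SLC3A2. The other SLC38A1 window, the other SLC1A4 window and the other SLC3A2 windows had no match. The fifth gene, SLC1A5, had its match at -97 to -90 of 1 of its 3 windows.

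The arrays of a line were not alike, and this bears on most of the values below. Control probe sets for the 3' and 5' ends of GAPDH gave a 3' to 5' signal ratio of 0.803 on E1 array 1, 34.1 on E1 array 2 and 71.9 on E1 array 3, against 0.774 to 0.811 on the HCT116 arrays, so that E1 arrays 2 and 3 had little signal from the 5' end. For this reason differences for E1 array 1 alone against the 3 HCT116 arrays stand beside those from all arrays. HCT116 array 2 stood apart in another way, described below, and values without it are given too. The labels call the arrays triplicates without saying whether they came from separate cultures, so the spread between them may be technical. Of 15 markers of colon epithelium, KRT8, KRT18, KRT19, EPCAM and CDH1 had mean intensities of at least 705 in both lines on their brightest probe set. The KRT8 mean was uneven in E1, with 2862, 372 and 103 on E1 arrays 1, 2 and 3, against 3169 to 4693 in HCT116. By contrast CDX1, CDX2, VIL1, CDH17 and GUCY2C averaged under 20 in both lines. Over the genes measured, the markers of fibroblasts (8 genes) summed to 296 to 434 per array in E1 and 367 to 425 in HCT116, those of leukocytes (6 genes) to 177 to 233 in E1 and 181 to 274 in HCT116, and those of endothelium (5 genes) to 97.2 to 134 in E1 and 92.0 to 112 in HCT116. The colon markers summed to 11904 to 14876 in E1 and 17027 to 19677 in HCT116. Their part in the transporter values was not tested.

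Values are the deposited probe set intensities, on a linear scale with no unit. A difference subtracts the mean log2(intensity + 32) of HCT116 from that of E1, and its standard error (SE) comes from a limma fit over all 22215 probe sets. A probe set is called where the Benjamini-Hochberg adjusted p over all of them lies under 0.05. Of the 23 transporter probe sets 1 was called, lower in E1, and 0 higher, beside 0.77% of all probe sets called in either direction and 0.554% called lower. The arrays of the lines did not overlap for 4 of the 23, all 4 lower in E1, beside 13% of all probe sets that did not overlap and were lower, 7.45% that were higher and 20.5% in either direction. Because these genes were chosen with this contrast known, nothing is read from those counts. The median difference was -0.19 over the 23 probe sets and -0.02 over all probe sets, and 17 of the 23 were negative. Without HCT116 array 2, 0 of the 23 were called, beside 0.027% of all probe sets, and the median of the 23 was -0.04 against -0.03 over all. With E1 array 1 alone, 0 of the 23 were called, beside 0% of all.

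SLC38A1, also known as SNAT1, was the gene whose signal in this contrast chose the set, so its values and its call are a description only. Its single probe set, 218237_s_at, read 65.1, 95.4 and 102 on E1 arrays 1, 2 and 3, against 396, 715 and 489 on HCT116 arrays 1, 2 and 3. Every E1 array lay below every HCT116 array. The means were 87.3 ± 19.5 in E1 and 534 ± 164 in HCT116 (SD, n = 3 each), a ratio of 0.164 and a log2 difference of -2.22 (SE 0.24). The E1 array with a GAPDH ratio like that of HCT116, array 1, had the lowest SLC38A1 signal of the 6, and against HCT116 it alone gave -2.50. Without HCT116 array 2 the difference was -2.0. The call ended when any 1 array other than E1 array 1 was left out, at differences from -2.40 to -2.0, and stayed without E1 array 1, at -2.08. Each array measured a whole culture, so that fewer cells with the transcript and less transcript per cell cannot be told apart.

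SLC38A2 (SNAT2) belongs to the same family as SLC38A1 and has the same kind of sodium-coupled uptake. Its probe set 220924_s_at read 3566, 3354 and 4941 in E1, against 3760, 4637 and 3326 in HCT116. The other, 218041_x_at, read 3411, 3485 and 4859 in E1, against 3939, 4545 and 3726 in HCT116. The arrays of the lines overlapped on both probe sets. The log2 differences were 0.01 (SE 0.20) and -0.07 (SE 0.18), and with E1 array 1 alone -0.12 and -0.25. The SLC38A2 differences with all arrays were thus smaller than their standard errors, unlike that of SLC38A1, although this contrast between the pair was itself not tested.

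**Figure D1:**
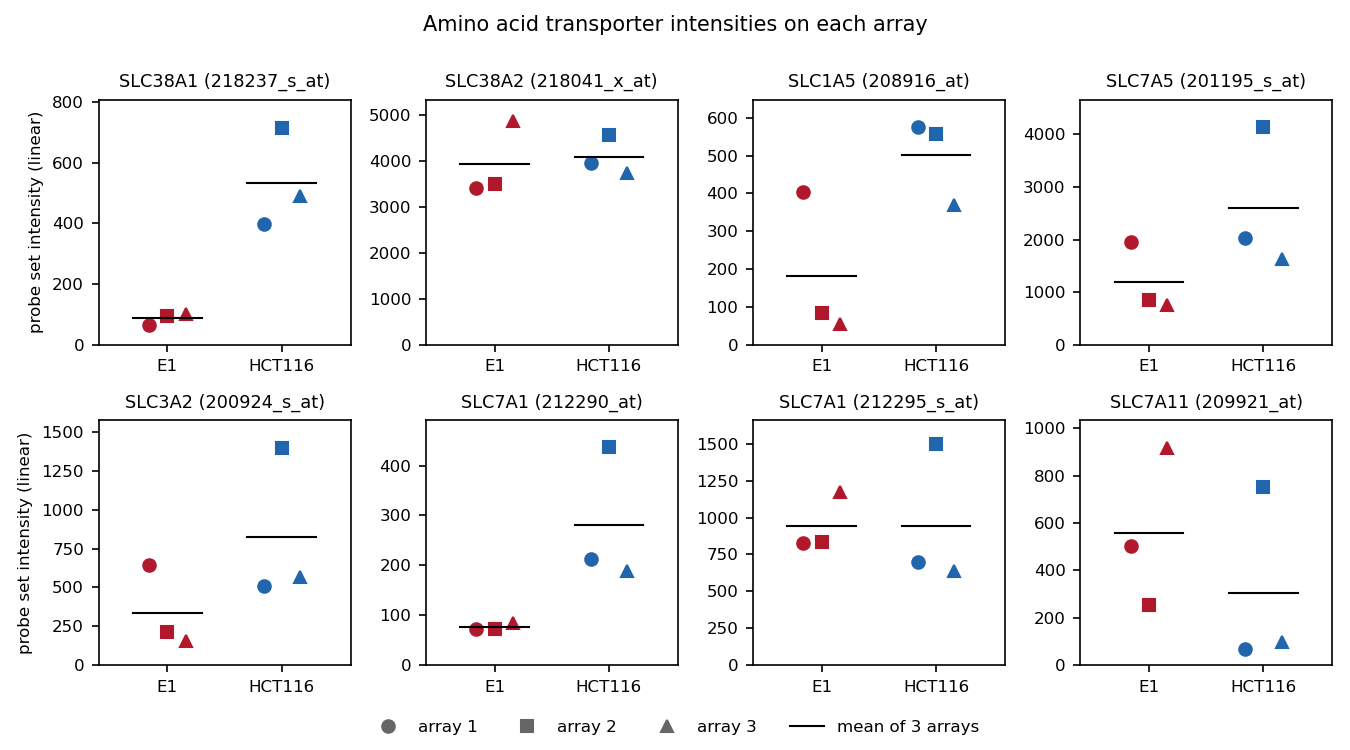
Probe set intensity (linear scale, from 0) of 8 transporter probe sets on each of the 3 E1 arrays (red, left) and 3 HCT116 arrays (blue, right). Symbols give the array number and black lines the mean of 3. SLC38A1 is low on all 3 E1 arrays, SLC1A5, SLC7A5 and SLC3A2 are low on E1 arrays 2 and 3 while E1 array 1 stands apart from them, and HCT116 array 2 is the highest HCT116 array in every panel but that of SLC1A5.

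SLC1A5 (ASCT2) exchanges glutamine and other neutral amino acids across the plasma membrane. Its probe set 208916_at read 403, 83.3 and 54.7 on E1 arrays 1, 2 and 3, against 574, 558 and 368 in HCT116. E1 array 1 lay inside the HCT116 range, whereas E1 arrays 2 and 3 lay far below it. The log2 difference was -1.68 (SE 0.61) over the 6 arrays, but -0.26 for E1 array 1 alone. Within E1, array 1 exceeded the mean of arrays 2 and 3 by 2.12 on the log2 scale, the largest such gap among the 23 probe sets. The low SLC1A5 values thus fell on the arrays with high GAPDH ratios, and the part of that ratio in them was not tested.

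SLC1A4 (ASCT1), an exchanger of alanine, serine and cysteine, was dim on all 4 of its probe sets, with line means between 55.4 and 125. The brightest, 212811_x_at, read 129, 57.2 and 83.1 in E1, against 90.5, 209 and 75.2 in HCT116. The 4 log2 differences ran from -0.31 to 0.04, each smaller than its standard error, and from -0.25 to 0.27 with E1 array 1 alone, and the arrays of the lines overlapped on every one. HCT116 array 2 was the highest of the 6 arrays on all 4, and without it the differences ran from 0.04 to 0.45.

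SLC7A1 (CAT1), the carrier of arginine and lysine, gave values that depended on the probe set. On 212290_at it read 72.3, 72.0 and 83.5 in E1, against 213, 437 and 189 in HCT116, with no overlap. The difference there was -1.45 (SE 0.29), -1.5 with E1 array 1 alone and -1.11 without HCT116 array 2. The part of the GAPDH ratio in it was not tested. On the brightest probe set, 212295_s_at, SLC7A1 read 828, 834 and 1174 in E1, against 697, 1499 and 640 in HCT116. There the lines overlapped, at 0.09 (SE 0.35), -0.08 with E1 array 1 alone and 0.46 without HCT116 array 2. The dim 206566_at read 15.5, 25.0 and 9.36 in E1, against 31.2, 85.1 and 50.9 in HCT116, with no overlap. Its difference was -0.82 (SE 0.25), -0.84 with E1 array 1 alone and -0.59 without HCT116 array 2. A further dim probe set, 212292_at, stood at -0.87 (SE 0.42) with overlapping arrays. It stood at -0.67 with E1 array 1 alone and at -0.54 without HCT116 array 2. The last, 215979_s_at, read under 8 on every array. The probe sets of SLC7A1 therefore do not give a single answer, and the positions of their targets on the transcript were not used here.

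SLC3A2 is the heavy chain that SLC7A5, SLC7A8 and SLC7A11 need to reach the cell surface. Its probe set 200924_s_at read 647, 214 and 151 on E1 arrays 1, 2 and 3, against 506, 1401 and 565 in HCT116. E1 array 1 lay inside the HCT116 range and E1 arrays 2 and 3 below it. The log2 difference was -1.30 (SE 0.59) with all arrays, -0.19 with E1 array 1 alone and -0.86 without HCT116 array 2.

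SLC7A5 (LAT1), the light chain for leucine and other large neutral amino acids, had its signal lowest on the same E1 arrays. Its probe set 201195_s_at read 1948, 849 and 751 in E1, against 2033, 4148 and 1632 in HCT116. E1 array 1 again lay inside the HCT116 range and E1 arrays 2 and 3 below it, and HCT116 array 2 was the highest. The difference was -1.13 (SE 0.48) with all arrays, -0.30 with E1 array 1 alone and -0.74 without HCT116 array 2. For SLC1A5, SLC3A2 and SLC7A5 alike, the difference with all arrays rested on E1 arrays 2 and 3, those with high GAPDH ratios.

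SLC7A8 (LAT2), the other light chain for large neutral amino acids, was dim. Its brightest probe set, 216092_s_at, read 129, 97.3 and 93.3 in E1, against 108, 93.2 and 63.1 in HCT116, a difference of 0.22 (SE 0.19) with overlapping arrays, or 0.45 with E1 array 1 alone. The other 4 probe sets had line means between 4.39 and 37.8. Among them 217248_s_at did not overlap between the lines, at 12.9, 8.39 and 27.1 in E1, against 33.6, 38.4 and 38.6 in HCT116. At such low signals no order is read from it.

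SLC7A11 (xCT), which imports the cystine used to make glutathione, had on 2 of its 3 probe sets the largest standard errors of the 23. Its probe set 209921_at read 501, 255 and 916 in E1, against 65.9, 754 and 96.7 in HCT116. On 217678_at it read 406, 213 and 545 in E1, against 70.8, 689 and 183 in HCT116. On both, the 3 E1 arrays lay above HCT116 arrays 1 and 3, and HCT116 array 2 lay among or above the E1 arrays. The differences were 1.29 (SE 0.86) and 0.65 (SE 0.73) with all arrays, against 2.23 and 1.41 without HCT116 array 2, where neither was called. With E1 array 1 alone they were 1.31 and 0.80. The dim 207528_s_at stood at -0.27 (SE 0.34), or 0.13 without HCT116 array 2. SLC7A11 was thus the 1 gene of the 9 with a probe set over 1 log2 unit higher in E1, and its HCT116 mean rested on a single array.

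**Figure D2:**
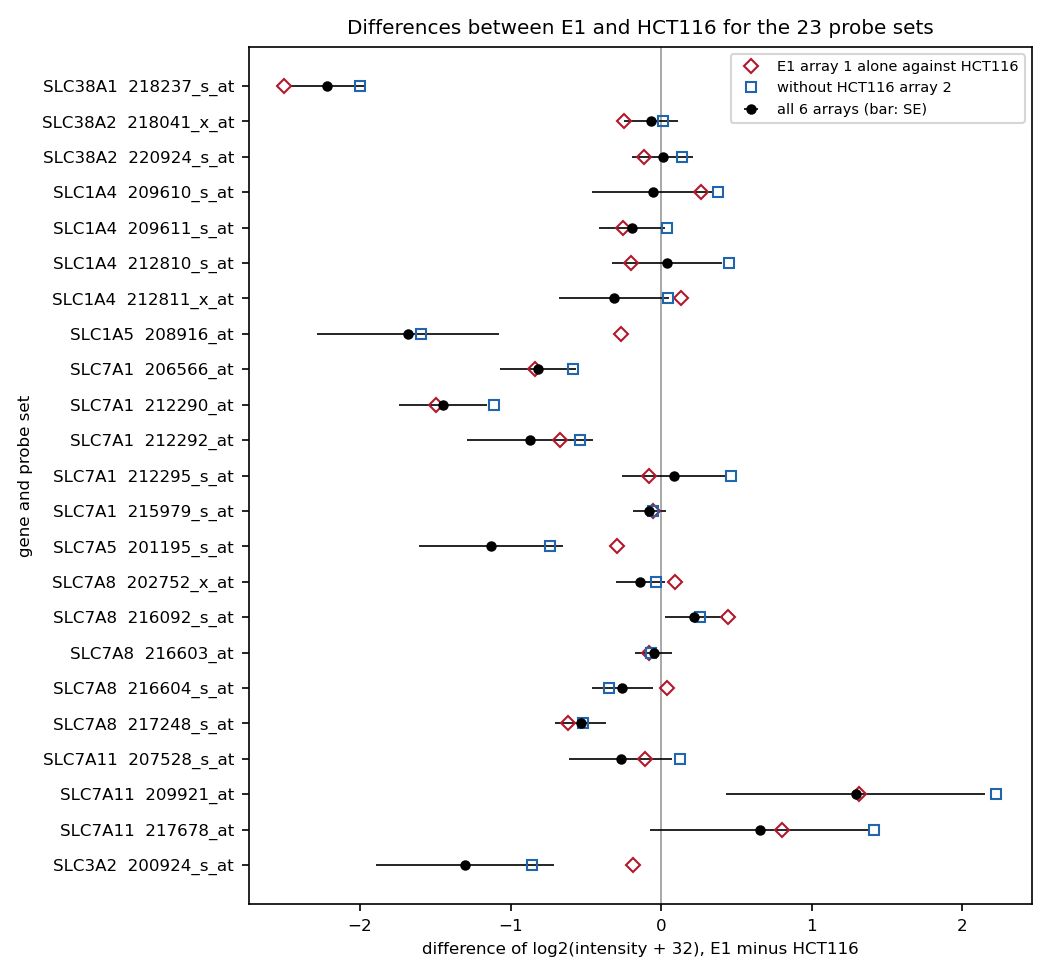
Difference of log2(intensity + 32), E1 minus HCT116 (x axis), for each of the 23 probe sets (y axis). Black points are from all 6 arrays with bars of 1 SE, red diamonds from E1 array 1 alone against the 3 HCT116 arrays, and blue squares from the 5 arrays without HCT116 array 2. SLC38A1 keeps a difference between -2.50 and -2.0, whereas the diamonds of SLC1A5, SLC7A5 and SLC3A2 lie at -0.30 to -0.19.

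The spread within HCT116 had a pattern of its own, which compares arrays of 1 line. The genes were chosen with earlier results of these data known, and SLC38A1, whose signal chose the set, is among them. The pattern is therefore a description only. HCT116 array 2 was the highest of the 3 HCT116 arrays on 18 of the 23 transporter probe sets, or 78.3%, against 30% of all probe sets. The 23 probe sets belong to 9 genes, so probe sets of the same gene are counted more than once. The 18 include the very dim SLC7A1 probe set 215979_s_at, where the distance of HCT116 array 2 from the others was 0.08. The median log2 distance of HCT116 array 2 from the mean of the other 2 HCT116 arrays was 0.69 over the 23 probe sets and -0.04 over all probe sets. The distance was 2.81 for SLC7A11 on 209921_at, 1.34 for SLC3A2, 1.17 for SLC7A5 and 1.13 for SLC7A1 on 212295_s_at. It was 1.07 for SLC1A4 on 212811_x_at, 0.66 for SLC38A1, 0.39 for SLC38A2 on 220924_s_at and 0.26 for SLC1A5. For SLC7A8 it was 0.12 on the brightest probe set, 216092_s_at, and -0.27 to 0.31 on the others. In E1 no array was the highest on as large a share of the transporter probe sets: array 3 led on 12 of 23, array 1 on 10 and array 2 on 1.

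Genes of the ATF4 and amino acid response list showed the same array apart. Of its 31 probe sets, 28 were highest on HCT116 array 2 among the HCT116 arrays, or 90.3%, with a median distance of 1.19. By contrast the median distance was -0.08 over 49 probe sets of other amino acid transporters, 0.11 over 19 of cystine and glutathione genes and -0.07 over 23 of glutamine, glutamate and proline enzymes. In E1, array 1 led on 17 of the 31 probe sets of the ATF4 list, or 54.8%, at a median distance of 0.32 from the other E1 arrays. The following 4 genes were picked after their values were seen. ATF4 itself read 1582, 5168 and 2211 on HCT116 arrays 1, 2 and 3, and 3043, 2172 and 2189 in E1. TRIB3, a pseudokinase induced by ATF4, read 693, 3638 and 525 in HCT116, and 899, 391 and 444 in E1. Asparagine synthetase, ASNS, read 1993, 4717 and 441 in HCT116, and 1540, 669 and 2214 in E1. CHAC1, which degrades glutathione, read 60.5, 1439 and 94.3 in HCT116, and 213, 56.2 and 120 in E1. HCT116 array 2 was the highest HCT116 array for all 4. The GAPDH ratio of that array, 0.793, lay between those of the other HCT116 arrays, and its median intensity, 61.9, was near theirs of 66.6 and 62.3. These are values of 1 array, and why it stood apart was not tested. The labels do not say whether it came from a separate culture.

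**Figure D3:**
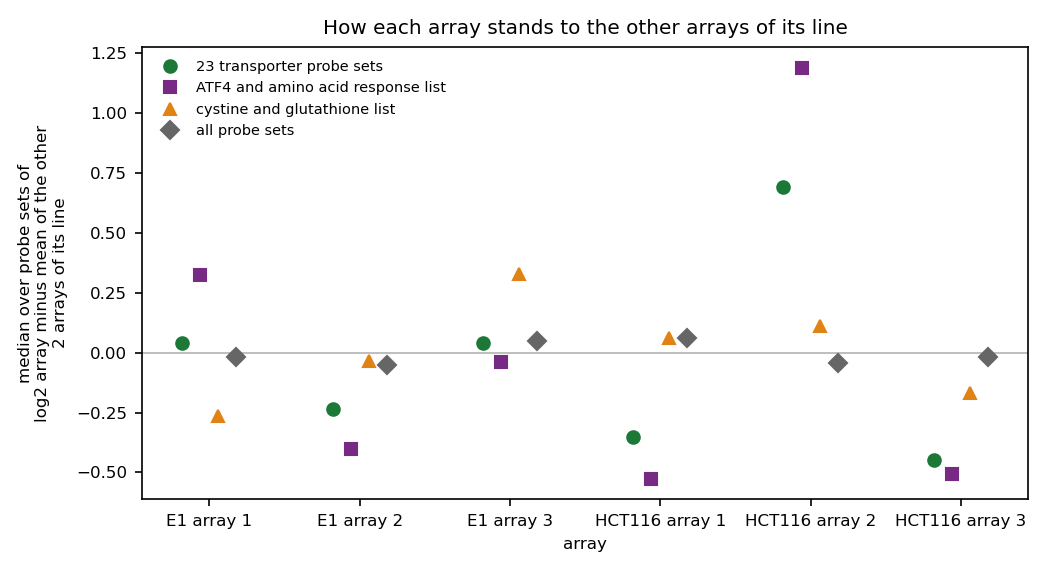
For each array (x axis), the median over probe sets of its log2(intensity + 32) minus the mean of the other 2 arrays of its line (y axis), for the 23 transporter probe sets, the ATF4 and amino acid response list, the cystine and glutathione list and all probe sets. On HCT116 array 2 the transporters stand at 0.69 and the ATF4 list at 1.19, while all probe sets lie at -0.04.

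Across the 6 arrays the probe sets most like SLC38A1, by Pearson's r of log2(intensity + 32) among 9930 candidate probe sets brighter than the median, were those of NR3C1 (r = 0.999), IGF2BP3 (r = 0.998), LAMC1 (r = 0.988), TRIM25 (r = 0.984) and ITGA6 (r = 0.98). NR3C1 is the glucocorticoid receptor, IGF2BP3 an RNA-binding protein, LAMC1 a laminin chain, TRIM25 a ubiquitin ligase and ITGA6 an integrin chain. IGF2BP3 on 203819_s_at read 45.9, 81.5 and 82.4 in E1, against 484, 886 and 506 in HCT116, again lowest on E1 array 1 and highest on HCT116 array 2. These r values describe 6 points that fall into 2 lines, and they carry no p. Among the other transporters the most alike were SLC7A1 on 212290_at (r = 0.959) and on 206566_at (r = 0.895). The other SLC7A1 probe sets stood at 0.711 on 212292_at, 0.602 on 215979_s_at and 0.098 on the brightest, 212295_s_at, so SLC7A1 had no single likeness. SLC38A2 stood at 0.324 and 0.124, SLC3A2 at 0.666, SLC7A5 at 0.697, SLC1A5 at 0.651 and SLC7A11 on 209921_at at -0.35.

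Genes that work beside these carriers were compared between the lines in the same fit, from lists drawn up with earlier results of these data known. Of 49 probe sets of 32 other amino acid transporter genes, limma called 0, with 5 lower and 0 higher at an unadjusted p under 0.05, and a median difference of -0.13. Over all probe sets 16.5% passed that unadjusted threshold, 2603 lower and 1055 higher of 22215, and the unadjusted counts of this and the following lists are to be read beside that share. The leading ones were SLC7A6, another light chain of SLC3A2, at -0.72 (SE 0.14, limma adjusted p = 0.0894) on 203579_s_at, and SLC25A22, a mitochondrial glutamate carrier, at -1.52 (SE 0.37, limma adjusted p = 0.149). With E1 array 1 alone SLC7A6 stood at -0.65 and SLC25A22 at -0.74. The other SLC7A6 probe sets, 203580_s_at and 203578_s_at, stood at -0.48 and -0.35 with overlapping arrays. Of 31 probe sets of 23 ATF4 and amino acid response genes, limma called 0, with 4 lower and 0 higher at an unadjusted p under 0.05. Both leading probe sets belonged to ATF5, a relative of ATF4, at -0.96 (SE 0.27, limma adjusted p = 0.187) and -0.85 (SE 0.24, limma adjusted p = 0.188). With E1 array 1 alone these were -0.45 and -0.51, and the dim remaining ATF5 probe set, 217389_s_at, stood at 0.03. The median of the ATF4 list was -0.27 with all arrays but 0.22 without HCT116 array 2, so its sign depended on that array.

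Enzymes that make and use glutamine were not called either. Of 23 probe sets of 16 glutamine, glutamate and proline enzymes, limma called 0, with 8 lower and 2 higher at an unadjusted p under 0.05 and a median of -0.37. PPAT, which spends glutamine in the first step of purine synthesis, stood at -0.97 (SE 0.18, limma adjusted p = 0.0856) on 209433_s_at, or -1.28 with E1 array 1 alone. The other PPAT probe set, 209434_s_at, stood at -0.11 (SE 0.29) with overlapping arrays, or -0.53 with E1 array 1 alone. GLUL, glutamine synthetase, stood at 1.03 (SE 0.19, limma adjusted p = 0.0870) on its brightest probe set, 215001_s_at, with 1197, 1545 and 1938 in E1 against 742, 701 and 764 in HCT116. The E1 and HCT116 arrays did not overlap there, and E1 array 1 alone gave 0.68, but the other GLUL probe sets, 217202_s_at and 200648_s_at, stood at -0.90 and -0.46, or at -0.11 and 0.05 with E1 array 1 alone.

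In the cystine and glutathione list 1 of 19 probe sets (14 genes) was called. Glutathione reductase, GSR, which keeps glutathione reduced, read 271, 216 and 180 in E1, against 923, 771 and 890 in HCT116, and fell by 1.82 on the log2 scale (SE 0.17, limma adjusted p = 0.0179). With E1 array 1 alone it stood at -1.55 and was not called. The GSR call ended when any 1 array other than E1 array 1 was left out, at differences from -1.90 to -1.70. The list had 5 probe sets lower and 1 higher at an unadjusted p under 0.05 and a median of -0.05. Of 35 probe sets of 22 mTORC1 amino acid sensing genes, limma called 0, with 7 lower and 1 higher at an unadjusted p under 0.05 and a median of 0.02. The proton pump subunit ATP6V1A led at -1.19 (SE 0.19, limma adjusted p = 0.0603) on 201971_s_at, or -0.89 with E1 array 1 alone. Its brighter probe set, 201972_at, stood at -0.26 (SE 0.26) with overlapping arrays, or -0.64 with E1 array 1 alone. The GTPase RHEB followed at -0.77 (SE 0.15, limma adjusted p = 0.09998) on the dim 201452_at, which averaged 3.60 in E1 and 29.3 in HCT116, or -0.68 with E1 array 1 alone. The other 4 RHEB probe sets were positive, from 0.09 on the brightest, 201453_x_at, to 0.32 on 213409_s_at, where the arrays did not overlap. With E1 array 1 alone those 4 ran from -0.57 to 0.12, so RHEB had no single direction.

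Among 38 probe sets of 16 partners and regulators of the transporters 1 was called, 7 were lower and 1 was higher at an unadjusted p under 0.05, and the median was -0.13. MAX, the DNA-binding partner of MYC, read 24.4, 7.27 and 1.91 in E1 on 208403_x_at, against 83.9, 146 and 138 in HCT116, and fell by 1.85 on the log2 scale (SE 0.26, limma adjusted p = 0.0447). The brightest MAX probe set, 209332_s_at, stood at -0.02 (SE 0.23). The dimmer 210734_x_at stood at -1.54 without overlap, but at -0.38 with E1 array 1 alone. The probe sets 209331_s_at and 214108_at stood at -0.15 and 0.29 with overlapping arrays, so MAX had no single answer. The call of 208403_x_at too ended when any 1 array other than E1 array 1 was left out, at differences from -2.05 to -1.69. With E1 array 1 alone 208403_x_at stood at -1.43. MYC, which is known to raise glutamine uptake, read 1688, 1602 and 3379 in E1, against 1782, 2886 and 1906 in HCT116, with overlapping arrays at -0.03 (SE 0.34), or -0.34 with E1 array 1 alone.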

How the data were processed

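Per the labels' protocols, Trizol was used for RNA extraction and the targets carried biotin. The authors deposited 1 linear intensity for each of 22283 probe sets on every array. How probes were summarized, background-corrected and scaled is not given in the sources used here. The 68 control probe sets entered no test. Of the remaining 22215, 19065 carry 1 gene symbol, 1043 several and 2107 none, and those with 1 symbol were named; symbols were checked by Entrez number against RefSeq GRCh38.p14, which held 19053 of them and changed 0. Probe set names ending in _s_at or _x_at mark probes that can match several transcripts. Array medians of intensity lay between 48.1 and 66.6.

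Intensities were transformed as log2(intensity + 32), with no further normalization, which understates changes of dim probe sets. Both lines were fitted by limma 3.58.1 (R 4.3.3; two-sided moderated test of lmFit and eBayes, Benjamini-Hochberg over all 22215 probe sets), and the scripts were tested on simulated data. The number of arrays limits the precision. Arrays were grouped by title. Every member probe set is described. From each other list the called probe sets were named, up to 4, or the 2 with the smallest p where none was called, and 5 genes most like SLC38A1 were named. TRIB3, ASNS, CHAC1, ATF4, MYC and the other probe sets of a named gene were added after their values were seen. The genes, lists and tests were chosen with earlier results of these data known. The alternatives were offsets of 1 and 100, quantile normalization, subtraction of array medians, leaving out the lowest 40% of probe sets, 1 probe set per gene, a trended robust fit, the replicate number as a block, the GAPDH ratio as a covariate, E1 array 1 alone, and leaving out each array in turn.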

Additional observations from a re-analysis of the deposited data

How the results depend on the processing

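With 3 arrays per line, few calls were stable. All probe sets: 171 were called (48 higher and 123 lower in E1). The count was 111 with an offset of 100, 310 without the lowest 40%, 50 with 1 probe set per gene (26 higher and 24 lower) and 6 with the GAPDH ratio as a covariate, which differs only on E1 arrays 2 and 3 and so nearly repeats E1 array 1 alone. It was 0 with E1 array 1 alone and ranged from 5 to 2358 with 1 array left out, 2358 being without E1 array 1. Subtracting array medians moved the median of all probe sets from -0.02 to 0.13 and gave 79 higher and 127 lower; quantile normalization gave 79 and 108.

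The set was chosen by SLC38A1, so its call is a description. It passed the threshold in 7 of 16 alternatives at values from -2.58 to -1.73. The count of called transporter probe sets was 0 with quantile normalization, the GAPDH covariate or E1 array 1 alone. It was 2 without the lowest 40%, where SLC7A1 on 212290_at was added (-1.45), and 0 to 2 with 1 array left out, 2 being without E1 array 1, where SLC1A5 was added (-2.39). Of 348 transporter differences under alternatives, 326 stayed within 1 residual SD of the reported value. That count is no measure of stability. The trended robust fit, the replicate block, leaving out the lowest 40% and 1 probe set per gene cannot change a difference. The residual SD is also wide where arrays of a line differ: SLC7A11 on 209921_at ranged from 0.72 to 2.23 and counted as staying.

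With 1 array left out, calls ranged from 0 to 5 for other transporters, 0 to 2 for the ATF4 list, 0 to 7 for glutamine enzymes, 0 to 4 for cystine and glutathione genes, 0 to 5 for mTORC1 genes and 0 to 6 for partners and regulators, each highest without E1 array 1. With the GAPDH covariate or E1 array 1 alone the cystine and partner lists had 0. The partner list also had 0 with either offset, quantile normalization or 1 probe set per gene, quantile normalization called 1 glutamine enzyme (GLUL), and the mTORC1 list had 1 with an offset of 1 and 1 without the lowest 40%. GSR ranged in adjusted p from 0.00315 to 0.187 and MAX from 0.00739 to 0.282.

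The deviations of same-numbered arrays from the means of their lines correlated at -0.04, -0.31 and -0.09. Within a line these deviations sum to 0, so such values cannot settle whether replicate numbers pair the arrays. With the replicate number as a block 0 probe sets were called in all, and thus 0 transporters, 0 cystine and glutathione genes and 0 partners. Why a call changed under an alternative was not tested.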
